A study of Mus musculus with 14 samples.

Results

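miR-146a and miR-146b (mmu-miR-146a and mmu-miR-146b on the array) are 2 mature miRNAs made from separate genes, and both were followed in the corpus callosum of mice fed cuprizone (CPZ). They were taken by name from the 566 mouse miRNAs listed on the array. miR-146a was chosen by its rise over control on these same arrays, where it was one of the 2 miRNAs of 225 tested that passed the thresholds 2 days after CPZ. Its values are therefore given as a description, without a test. miR-146b entered as its paralog, by name, and was tested.

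CPZ is a copper chelator that kills oligodendrocytes when it is fed to mice, and myelin returns once normal chow is restored. The corpus callosum, the large white matter tract between the hemispheres, was dissected from single mice and its total RNA was hybridised to 14 single-colour Agilent mouse miRNA arrays. The control group (n = 4) ate a normal diet. The 4wd group (n = 4) had eaten CPZ at 0.2 to 0.4% of the powdered chow for 4 weeks, the 2dr group (n = 4) had the same 4 weeks and then regular diet for 2 days, and the 2wr group (n = 2) had the same 4 weeks and then regular diet for 2 weeks.

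The labels give the mice as male and name no strain, allele or knockout for them. By the methods, CPZ feeding began at 7 to 8 weeks of age. The arrays lay on 2 slides. Slide 1 held 8 arrays and slide 2 held 6, and each slide held arrays of all 4 groups. The p-values below measure the spread between these arrays. In whole tissue, fewer cells of a type and less RNA per cell cannot be told apart.

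A miRNA guides a silencing complex to messenger RNAs mainly by pairing through its seed, the bases near its 5′ end. miR-146a is induced by NF-κB after Toll-like receptor or cytokine signals, and it lowers IRAK1 and TRAF6, which carry the same signals towards NF-κB, so that it acts as a brake on innate immune activation in macrophages and microglia. miR-146b shares the seed and can repress overlapping targets.

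The mature sequences show how close the paralogs are, and are written 5′ to 3′ with the seed, bases 2 to 8, in capitals. Both members matched an entry of RefSeq (GRCm38.p6).
miR-146a-5p: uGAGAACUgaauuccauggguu
miR-146b-5p: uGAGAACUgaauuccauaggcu
The seed is the same in both, and of the 1679 named mature mouse miRNAs in the table only these 2 carry it. The same sequences with capitals at the differing bases show where the paralogs part.
miR-146a-5p: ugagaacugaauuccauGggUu
miR-146b-5p: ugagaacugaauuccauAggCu
Counted from 1 at the 5′ end, the substitutions from miR-146a to miR-146b are G18A and U21C, so 20 of 22 positions (90.9%) are identical and both changes lie in the 3′ part. Each array probe has to tell the paralogs apart through this part. The probe sequences were not used here, and how far a probe for one paralog also reads the other was not tested.

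The genes are unlinked. Mir146, the gene of miR-146a, lies on the minus strand of chromosome 11, with Atp10b and Gm5782 as its annotated neighbours, and Mir146b lies on the plus strand of chromosome 19 and overlaps the long non-coding RNA Gm36493. Outside the mature strand the hairpins differ far more than the mature miRNAs do, as the hairpins show with the mature 5p strand in capitals.
Mir146: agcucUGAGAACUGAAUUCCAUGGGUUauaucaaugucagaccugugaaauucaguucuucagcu
Mir146b: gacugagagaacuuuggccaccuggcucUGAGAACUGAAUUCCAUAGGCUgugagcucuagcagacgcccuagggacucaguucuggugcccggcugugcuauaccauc
The opposite strands do not share a seed, shown here in capitals.
miR-146a-3p: cCUGUGAAauucaguucuucag
miR-146b-3p: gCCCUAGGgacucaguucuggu
The array carries the opposite strand of miR-146b under its older name, miR-146b*, with 4 probes. It was detected on 0 of the 14 arrays and its total signal was below 0 on all 14, between -6.66 and -0.69. The array lists no opposite strand of miR-146a.

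Signal intensity is the brightness of the spots in scanner units after background subtraction, and the total signal of a miRNA is the sum over its 2 probes. Both members were called detected by the image software on 14 of 14 arrays. The total signal of miR-146a ran from 22.6 to 303, with the software's own error between 8.02 and 12.3% of the signal. The total signal of miR-146b ran from 15.7 to 91.3, with an error between 8.39 and 18.4%. The number of arrays limits the precision.

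The arrays differed in overall brightness. The 75th percentile of the signal of the 170 miRNAs detected on every array was 379 to 849 in control, 217 to 344 in 4wd, 209 to 655 in 2dr and 306 to 619 in 2wr. Each array was therefore divided by its own 75th percentile before log2 was taken, and a level of 0 on this scale equals that percentile.

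miR-146a was at a low, even level in control mice and at higher levels in every mouse that had received CPZ. Before scaling, its signal in control was 48.6, 32.1, 22.6 and 43.7 for replicates 1 to 4. In 4wd it was 51.1, 91.8, 28.0 and 31.8, which overlapped control. In 2dr it was 162, 215, 171 and 140, and in 2wr 53.2 and 303, so that all arrays of both groups were above all control arrays even without scaling.

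On the log2 scale relative to the array's 75th percentile, the control levels of miR-146a were -3.69, -4.15, -4.06 and -4.28 (mean -4.05 ± 0.25 SD, n = 4). The 4wd levels were -2.65, -1.81, -2.95 and -3.44 (-2.71 ± 0.68, n = 4). The 2dr levels were -1.47, 0.04, -1.94 and -2.13 (-1.37 ± 0.98, n = 4). The 2wr levels were -2.53 and -1.03 (-1.78 ± 1.06, n = 2). No array of a CPZ group overlapped the control arrays, and one 2dr array, replicate 2, reached the 75th percentile of its own array, the highest level of miR-146a in the series. That array also had the lowest 75th percentile of the 14.

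**Figure D1:**
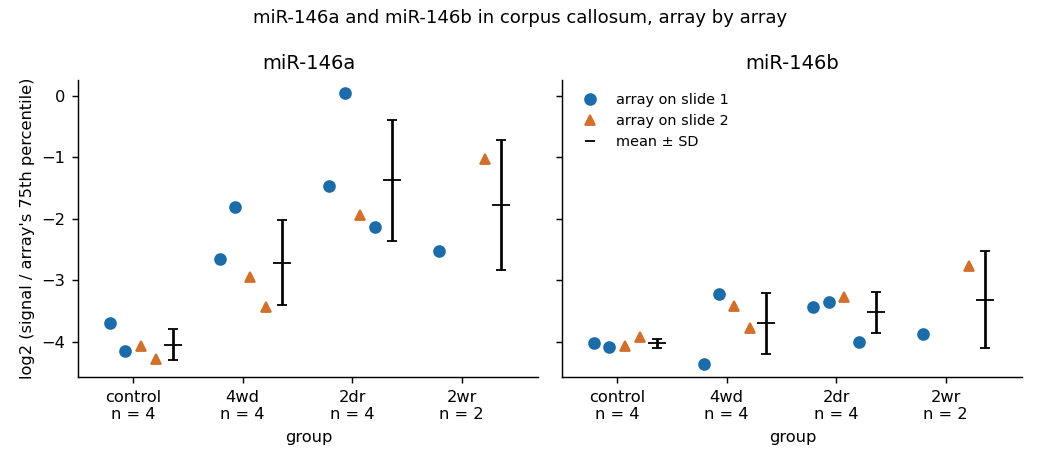
Log2 of the total signal over the array's 75th percentile (vertical axis) for miR-146a (left) and miR-146b (right) in the 4 groups, with 1 point per array, circles for slide 1, triangles for slide 2, and bars for the mean ± SD. All 10 CPZ arrays lie above the 4 control arrays for miR-146a, while for miR-146b the 4wd and 2dr arrays overlap control.

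The level of miR-146a relative to control was 1.33 higher on the log2 scale in 4wd (SE 0.49), 2.67 higher in 2dr (SE 0.49) and 2.27 higher in 2wr (SE 0.60). In linear terms these are 2.52-fold, 6.37-fold and 4.81-fold. All 4 arrays of 4wd, all 4 of 2dr and both of 2wr were above every control array. A group wholly above control was found for 6.22% of the 225 tested miRNAs in 4wd, 1.78% in 2dr and 3.11% in 2wr. Calls at an adjusted p under 0.05 in limma with at least a 2-fold change numbered 1 of 225 in 4wd (0.444%), 2 in 2dr (0.889%) and 0 in 2wr (0%, with 2 at an unadjusted p under 0.05). These shares served the choice of miR-146a and nothing is read from them.

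The order of the group means of miR-146a was control, 4wd, 2wr and 2dr. Between the CPZ groups the arrays overlapped. The 2dr mean was 1.34 above the 4wd mean (SE 0.49), with 2 of the 4 2dr arrays above every 4wd array. The 2wr mean was 0.93 above 4wd (SE 0.60) and 0.40 below 2dr (SE 0.60), and its 2 arrays lay on either side of most 2dr arrays. Leaving out 2dr replicate 2 put 2wr 0.07 above 2dr, and leaving out 2wr replicate 1 put it 0.34 above, so the order of these groups rests on single arrays.

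The group means of miR-146b differed from control by less than 1 on the log2 scale. The control arrays stood at -4.02, -4.09, -4.06 and -3.92 on the log2 scale (mean -4.02 ± 0.08 SD, n = 4), a narrower spread than in any other group. The 4wd arrays stood at -4.36, -3.23, -3.42 and -3.78 (-3.70 ± 0.50, n = 4). The 2dr arrays stood at -3.44, -3.36, -3.27 and -4.01 (-3.52 ± 0.33, n = 4), and the 2wr arrays at -3.87 and -2.76 (-3.32 ± 0.78, n = 2). In 4wd, 3 of 4 arrays were above every control array and replicate 1 was below every control array. In 2dr, 3 of 4 arrays were above control and replicate 4 lay among the controls. Both 2wr arrays were above control.

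None of the differences of miR-146b passed the test. The 4wd mean was 0.33 above control (SE 0.29, 95% interval -0.31 to 0.96, limma adjusted p = 0.792). The 2dr mean was 0.50 above control (SE 0.29, interval -0.13 to 1.14, limma adjusted p = 0.438). The 2wr mean was 0.71 above control (SE 0.36, interval -0.07 to 1.49, limma adjusted p = 0.996). The upper ends of these intervals are 1.95-fold, 2.20-fold and 2.81-fold, so a 2-fold rise in 2dr or 2wr lies within the error of these arrays.

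Exact two-sided permutation tests over the arrays gave p = 0.286 for miR-146b in 4wd against control, p = 0.0571 in 2dr and p = 0.133 in 2wr. Adjusted over the 6 comparisons between groups, these exact permutation values were 0.571, 0.343 and 0.4. The smallest p that 4 arrays against 4 allow is 0.0286, and that of 2 against 4 is 0.133, so the 2wr comparison could not pass a threshold of 0.05. Between CPZ groups, miR-146b was 0.18 higher in 2dr than in 4wd (SE 0.29, limma adjusted p = 0.687). It was 0.38 higher in 2wr than in 4wd (SE 0.36, limma adjusted p = 0.962) and 0.20 higher in 2wr than in 2dr (SE 0.36, limma adjusted p = 1). In each of these 3 comparisons 0 of the 225 miRNAs were called (0%), with 41, 11 and 2 at an unadjusted p under 0.05 in limma.

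The 2 arrays of 2wr set the size of the 2wr values. Without replicate 1, miR-146b was 1.26 above control and miR-146a 3.01 above. Without replicate 2, these were 0.15 and 1.52. Replicate 2 was the higher array for both members, and it lay on slide 2.

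Dividing an array by a single factor moves a miRNA and the median of all miRNAs alike. A change measured from that median is therefore nearly the same with and without scaling by construction, and is no check of the scaling. The median difference from control over the 225 tested miRNAs was 0.03 in 4wd, -0.25 in 2dr and -0.08 in 2wr, and without any scaling it was -0.93, -0.65 and -0.49. Measured from that median, miR-146a was 1.30, 2.93 and 2.35 higher with scaling, and 1.29, 2.92 and 2.34 higher without. miR-146b measured from the same median was 0.29, 0.76 and 0.79 higher with scaling, and 0.28, 0.76 and 0.78 higher without.

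**Figure D2:**
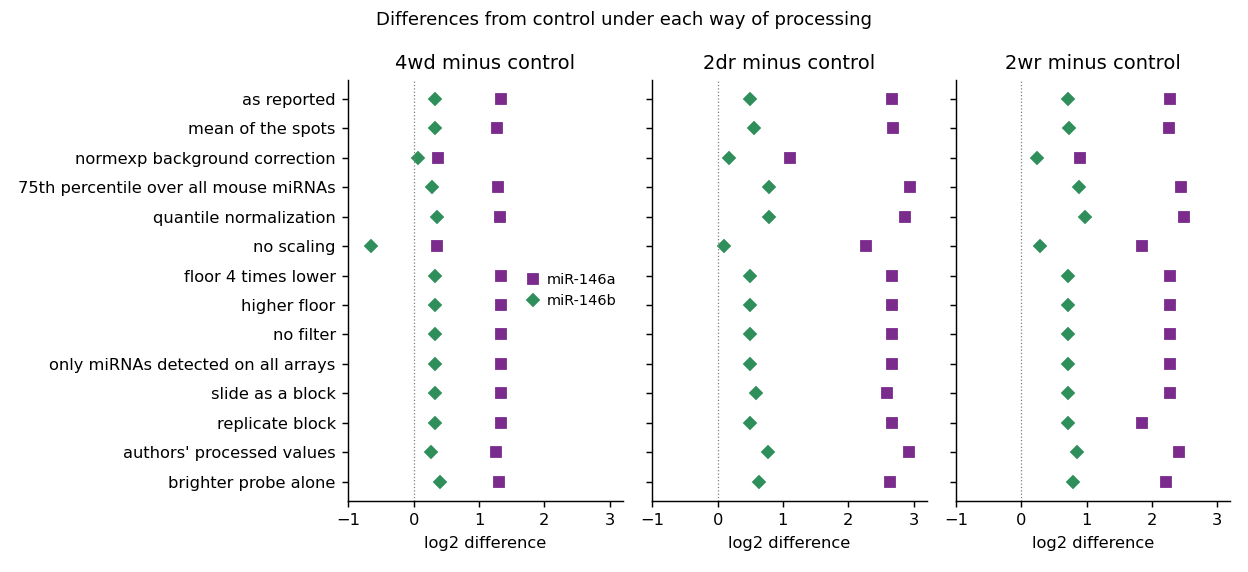
Difference from control on the log2 scale (horizontal axis) for miR-146a (squares) and miR-146b (diamonds) in 4wd, 2dr and 2wr, with a line for each way of processing. In all 14 lines of each panel miR-146a lies to the right of miR-146b, and miR-146b lies below 0 in 4wd without scaling and in no other line.

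The size of the miR-146a differences depended on the processing and, in 4wd, also on the scaling alone. The normexp setting joined the normexp model on the spots' median signals, an added offset of 50, quantile normalization and averaging over all spots. With it the differences of miR-146a from control fell to 0.37 in 4wd, 1.11 in 2dr and 0.90 in 2wr. An added offset narrows log2 differences between dim signals by construction, and the part of each step in this fall was not tested. Without scaling, the 4wd difference of miR-146a was 0.36.

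The difference between the paralogs within an array is unchanged when the array is divided by a single factor. Quantile normalization, which is no such division, moved its change from control to 0.97 in 4wd, 2.09 in 2dr and 1.52 in 2wr, from the values given below. Since the probes of each miRNA hybridise with their own strength, this difference is not a ratio of copies, and only its change between groups is compared. In control, log2 of miR-146a minus log2 of miR-146b was 0.33, -0.06, 0.00 and -0.36 (mean -0.02 ± 0.28 SD, n = 4). In 4wd it was 1.71, 1.42, 0.47 and 0.34 (0.98 ± 0.68, n = 4). In 2dr it was 1.97, 3.40, 1.33 and 1.88 (2.14 ± 0.88, n = 4), and in 2wr 1.34 and 1.73 (1.54 ± 0.27, n = 2). Every CPZ array was above every control array, the nearest being 4wd replicate 4.

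The paralogs thus moved apart by 1.01 in 4wd, 2.17 in 2dr and 1.56 in 2wr, so the ratio of their signals was 2.01-fold, 4.49-fold and 2.95-fold that of control. Among the 224 other tested miRNAs, 2 were above every control array in this measure in each of the 3 groups (0.893%). These were miR-146a itself and miR-155. As miR-146a was chosen for its rise, no test was made of the divergence.

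**Figure D3:**
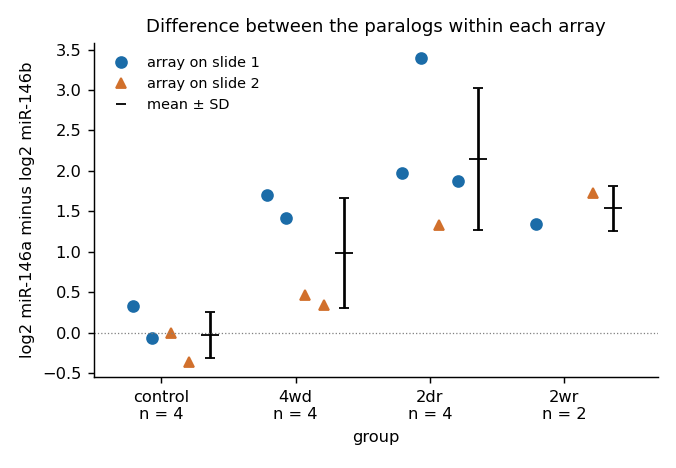
Log2 of miR-146a minus log2 of miR-146b on the same array (vertical axis) by group, with 1 point per array, circles for slide 1, triangles for slide 2, and bars for the mean ± SD. Control arrays sit between -0.36 and 0.33 and the CPZ arrays between 0.34 and 3.40, and in 4wd the 2 arrays of slide 1 stand above the 2 of slide 2.

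Against control, the direction was the same within each slide. On slide 1 the paralog difference was above control by 1.43 in 4wd, 2.28 in 2dr and 1.21 in 2wr. On slide 2 it was above by 0.59, 1.51 and 1.91. miR-146a alone was 1.69, 2.73 and 1.39 above control on slide 1, and 0.98, 2.23 and 3.14 above on slide 2. miR-146b was 0.26, 0.45 and 0.19 above control on slide 1, and 0.39, 0.72 and 1.23 above on slide 2. Between CPZ groups the direction turned with the slide. For miR-146a, 2wr minus 2dr was -1.34 on slide 1 and 0.91 on slide 2, and 2wr minus 4wd was -0.30 and 2.16. For the paralog difference, 2wr minus 2dr was -1.07 and 0.40, and 2wr minus 4wd was -0.22 and 1.32. For miR-146b these were -0.27 and 0.51, and -0.08 and 0.84. All within-slide values rest on 1 to 3 arrays a group. With the slide as a block, the 2dr difference of miR-146b was 0.58 (limma adjusted p = 0.316).

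Each member is read by 2 probes, each printed as 10 spots, and no spot of the 4 probes was saturated. The 2 probes of miR-146a differed in brightness. The brighter probe, A_54_P2317, was higher than in control by 1.31 in 4wd, 2.64 in 2dr and 2.22 in 2wr on the log2 scale. Every CPZ array was above every control array on this probe. The dimmer probe, A_54_P2318, had a signal of 3.27 to 8.90 in control, 6.26 to 14.5 in 4wd, 19.0 to 41.2 in 2dr, and 7.82 and 72.6 in 2wr, before scaling. In control 5 of its 40 spots were well above background, against 15 of 40 in 4wd, 40 of 40 in 2dr and 10 of 20 in 2wr. With control so close to the background, no fold change is given for it.

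For miR-146b the brighter probe, A_54_P2006, had 39 of 40 spots well above background in 4wd and all spots in the other groups. Its level was -4.16, -4.25, -4.52 and -4.37 in control, -4.30, -3.36, -3.87 and -4.19 in 4wd, -3.62, -3.36, -3.66 and -4.09 in 2dr, and -3.91 and -3.14 in 2wr. Its group means were 0.40, 0.64 and 0.80 above control. All 4 arrays of 2dr and both of 2wr were above control on this probe, against 2 of 4 in 4wd, so that 2dr replicate 4, which lay among the controls in the total, was just above them here. With the brighter probes alone the paralogs moved apart by 0.91, 2.00 and 1.42.

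The dimmer probe of miR-146b, A_54_P2005, was near the background on slide 1, with 1 of 80 spots well above it, and had 33 of 60 spots well above it on slide 2. Its signal ran from -0.67 on 4wd replicate 1 to 21.3 on 2wr replicate 2. In control 12 of its 40 spots were well above background, in 4wd 2 of 40, in 2dr 10 of 40 and in 2wr 10 of 20. The low total of miR-146b on 4wd replicate 1 included this negative value, and the brighter probe on that array, at -4.30, lay within the control range.

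The share of the total that came from the dimmer probe differed by slide. For miR-146a it was 10.2 to 17.8% on slide 1 and 20.4 to 24.1% on slide 2. For miR-146b it was -4.28 to 11.9% on slide 1 and 23.3 to 27.1% on slide 2. The same split was found for 118 of the 159 miRNAs with 2 probes that were detected on every array (74.2%), with a median shift of 6.08 percentage points. On slide 2, the miR-146a share was 20.8 and 20.4% in control and 21.1 to 24.1% in the CPZ arrays, all higher. The miR-146b share there was 27.1 and 26.7% in control and 23.3 to 26.6% in the CPZ arrays, all lower. On slide 1, which held more arrays, both shares overlapped control. There the miR-146a share was 14.6 and 10.2% in control and 12.2 to 17.8% in the CPZ arrays. The miR-146b share on slide 1 was 9.33 and 10.8% in control and -4.28 to 11.9% in the CPZ arrays. The part of this share in the group differences was not tested beyond the within-slide values above.

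**Figure D4:**
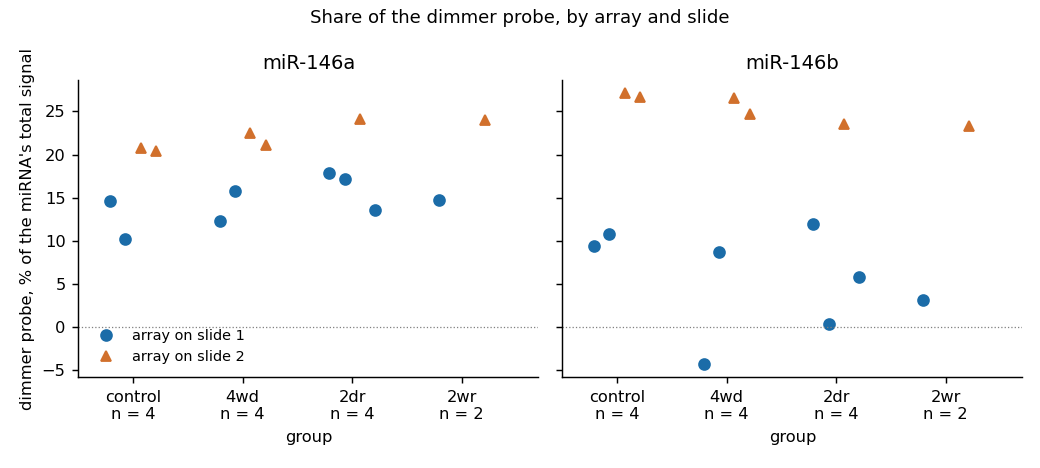
Signal of the dimmer probe as a percentage of the miRNA's total signal (vertical axis) for miR-146a (left) and miR-146b (right) by group, with 1 point per array, circles for slide 1 and triangles for slide 2. In every group the slide 2 arrays lie above the slide 1 arrays, and for miR-146b 4wd replicate 1 lies below 0.

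Over the 14 arrays the paralogs varied together in part. Pearson's r between them was 0.68 and Spearman's rho 0.71. After the slide means were subtracted r was 0.83, and after the group means were subtracted it was 0.53. Without the 2 arrays farthest from the median of miR-146a it was 0.72, and without the 2 farthest from that of miR-146b 0.61. The points share the arrays' scaling and the 4 groups, so these values are descriptive.

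**Figure D5:**
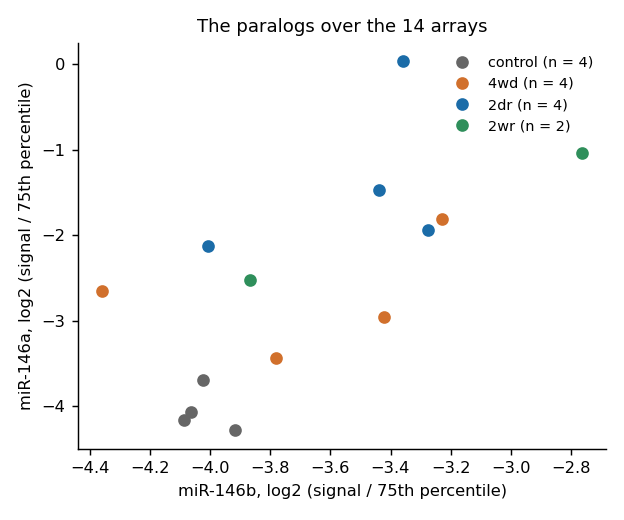
Level of miR-146a (vertical axis) against miR-146b (horizontal axis), both as log2 of the total signal over the array's 75th percentile, with 1 point per array coloured by group (n = 14). The control arrays form a tight cluster at the lower left, 4wd replicate 1 has the lowest miR-146b level, and 2wr replicate 2 the highest.

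The 5 tested miRNAs whose levels followed miR-146a most closely over the 14 arrays were miR-142-3p (r = 0.85), miR-425 (r = 0.84), miR-155 (r = 0.82), miR-23a (r = 0.79) and miR-27a (r = 0.77). With the slide means subtracted these values were 0.85, 0.84, 0.87, 0.86 and 0.78. With the group means subtracted they were 0.68, 0.83, 0.33, 0.75 and 0.71. miR-146b ranked 12 among the 224 other miRNAs, and 5 after the slide means were subtracted. The median r of miR-146a with all 224 was -0.23. miR-142-3p, listed below among the markers of myeloid cells, was detected on 11 arrays, while miR-155 was detected on 6. Values at the lower limit therefore enter both correlations.

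For miR-146b the closest were miR-425 (r = 0.74), miR-155 (r = 0.68), miR-146a (r = 0.68), miR-142-3p (r = 0.62) and miR-152 (r = 0.54). The slide-centred values were 0.82, 0.69, 0.83, 0.69 and 0.47, and the group-centred values 0.70, 0.63, 0.53, 0.46 and 0.76. The median over its 224 miRNAs was -0.06. miR-152 was detected on 9 of the 14 arrays, and its Spearman's rho with miR-146b was 0.40. It differed from control by -0.45 in 4wd, 0.32 in 2dr and -0.40 in 2wr (limma adjusted p from 0.714 to 0.996). miR-425, miR-155 and miR-142-3p stood in both lists, which rest on the same arrays. Of the neighbours detected on all 14 arrays, miR-425 was 0.10, 0.39 and 0.26 above control in 4wd, 2dr and 2wr on the log2 scale, miR-23a 0.13, 0.48 and 0.32, and miR-27a 0.24, 0.45 and 0.35. None of these passed the test (limma adjusted p from 0.422 to 0.996).

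A list of other miRNAs tied to Toll-like receptor and NF-κB signalling held miR-155, miR-21, miR-132, miR-9, miR-147, miR-125b-5p and let-7i, of which 6 were tested, and miR-147 was detected on no array. In 4wd and 2dr 1 of the 6, miR-155, was called higher, in 2wr 0, and none was called lower, beside 0.444, 0.889 and 0% called of all 225. The median difference from control over the 6 was 0.21 in 4wd, 0.18 in 2dr and 0.14 in 2wr, beside 0.03, -0.25 and -0.08 over all tested. miR-155, which is induced with miR-146a in activated macrophages, was detected on 0 of 4 control arrays, 1 of 4 in 4wd, 4 of 4 in 2dr and 1 of 2 in 2wr. It entered the tested miRNAs through 2dr alone, the group where it was highest. Its calls were lost with the higher floor (limma adjusted p = 0.903 in 4wd and 0.296 in 2dr). They were also lost under normexp (limma adjusted p = 0.554 and 0.161) and without scaling (limma adjusted p = 0.182 and 0.0605). The 4wd call alone was lost with the mean of the spots, quantile normalization, a lower floor or no filter (limma adjusted p from 0.107 to 0.295). Leaving out a single array of control, 4wd or 2dr lost the 4wd call as well for most of these arrays, and the 2dr call for none. Both calls held with either block and with the authors' values. In the methods' overall test 0 of the 225 passed. miR-21 was 0.41, 0.99 and 0.12 above control (limma adjusted p = 0.771, 0.368 and 0.996). The others differed from control in 2dr by -0.57 (miR-9), -0.30 (miR-132), 0.00 (miR-125b-5p) and 0.36 (let-7i), and none passed the test.

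Markers of other cells were set beside these values. The summed signal of 5 miRNAs of myeloid and other blood cells (miR-142-3p, miR-142-5p, miR-223, miR-342-3p and miR-150), as a percentage of the 75th percentile, was 102 to 142 in control, 135 to 148 in 4wd, 110 to 242 in 2dr and 127 to 167 in 2wr. All 5 were detected on some array, 4 were tested and none was called. miR-142-3p was detected on 2 of 4 control arrays, 4 of 4 in 4wd, 4 of 4 in 2dr and 1 of 2 in 2wr. The sum was mostly miR-342-3p, whose control mean was 0.03 on the log2 scale against -5.99 for miR-142-3p. miR-342-3p was 0.23, 0.31 and 0.23 above control in 4wd, 2dr and 2wr. miR-142-3p was 1.69, 2.69 and 1.83 above (limma adjusted p = 0.428, 0.201 and 0.996). miR-150 differed by -0.05, -1.16 and -0.04, and miR-223 by -0.91, 0.03 and 0.36. miR-142-5p was detected on 1 array in all, and miR-223 on 4 control arrays, 0 of 4wd, 3 of 2dr and 1 of 2wr. Their part in the rise of miR-146a was not tested.

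The oligodendrocyte miRNAs miR-219 and miR-338-3p were detected on every array. Their summed signal was 192 to 1088% of the 75th percentile in control, 144 to 263% in 4wd, 175 to 671% in 2dr and 306 to 353% in 2wr. miR-338-3p was 1.17 below control in 4wd (limma adjusted p = 0.402). The neuronal miRNAs miR-124 and miR-128 summed to 1813 to 2424% in control, 1035 to 3424% in 4wd, 1497 to 2431% in 2dr and 1630 to 2418% in 2wr. Of the endothelial pair miR-126-3p differed from control by -0.03 in 4wd, 0.03 in 2dr and -0.09 in 2wr. The red blood cell miRNA miR-451 was 0.45 below control in 4wd and 0.06 and 0.05 above in 2dr and 2wr, and its partner miR-144 was detected on no array.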

How the data were processed

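The authors labelled 100 ng of total RNA per array and quantified the spots with Agilent Feature Extraction (10.5.1.1, per the file headers). The deposited scanner files hold background-subtracted signal intensity per spot, probe and miRNA, with no normalization between arrays. A table of processed log2 values from the authors, deposited with the series, was an alternative only.

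Here the total signal intensity of each mouse miRNA was divided by the array's 75th percentile over the 170 miRNAs detected on all 14 arrays, values under a floor of 0.00176 were set to it, and log2 was taken, close to the methods' scaling. The 225 miRNAs with a detection call throughout any 1 group were fitted over the 4 groups with limma 3.58.1 (R 4.3.3), and p-values were adjusted by Benjamini-Hochberg over all 225. A call needed an adjusted p under 0.05 and at least a 2-fold change. Exact permutation tests used scipy 1.17.1. The fit was tested on simulated data for each comparison with control, over 225 miRNAs of which 40 changed. It recovered 84, 82.2 and 74% of 4-fold changes in 4wd, 2dr and 2wr, and 29.5, 29.5 and 23.5% of 2-fold changes. The values for 2-fold changes are limited by the rule that a call needs an estimate of at least 2-fold. The arrays gave 1, 2 and 0 calls in 4wd, 2dr and 2wr. Recovery with fewer than 40 changed miRNAs was not tested. The 10 viral miRNAs of the array were left out.

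The members and the lists of miRNAs were chosen with earlier results of these data known. The text names the members and their probes and opposite strands, the listed miRNAs, and for each member the 5 tested miRNAs of highest Pearson correlation over the arrays. No array was found to be a copy of another (smallest median absolute log2 difference between 2 arrays 0.197). The alternatives tried were other background correction, scaling, floors, filters, blocks, the methods' overall test followed by Tukey's comparison, the authors' values and leaving out each array.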

Additional observations from a re-analysis of the deposited data

How the results depend on the processing

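Of the settings that keep all arrays, none brought a difference of miR-146b past the threshold, and with arrays left out none did either (adjusted p from 0.245 to 1 in limma or the methods' overall test). With all arrays kept, the one difference of miR-146b that turned was 4wd against control, to -0.65 without scaling. The miR-146a differences from control moved by more than the SD between arrays under normexp (0.37, 1.11 and 0.90 in 4wd, 2dr and 2wr) and, in 4wd, without scaling (0.36). Under normexp the paralog differences fell to 0.30, 0.94 and 0.67. The other 400 values kept their direction and side or moved by less than the SD, except that the order of 2dr and 2wr for miR-146a turned as the report gives. The normexp setting joined the model, the offset, quantile normalization and averaging over spots. The offset narrows log2 differences between dim signals by construction, and the part of each step in the shift was not tested.

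With arrays left out in turn, the difference of miR-146b from control was 0.17 to 0.55 in 4wd, 0.42 to 0.67 in 2dr and 0.15 to 1.26 in 2wr. Its 2dr minus 4wd difference ran from -0.042 (without 4wd replicate 1) to 0.34, 2wr minus 4wd from -0.17 (without 2wr replicate 2) to 0.94, and 2wr minus 2dr from -0.35 (without 2wr replicate 2) to 0.76. A lone 2wr array was assumed to vary like the other groups.

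Same-numbered arrays were alike in part (correlation of deviations above 0.1 in 13 of 18 pairs, lowest -0.61). Of the 14 arrays, 8 were closest to an array of their own number. As 13 of the 18 pairs shared a slide, pairing and slide could not be told apart, and the main fit used no pairing. The labels disagree on the replicate numbers of the 2wr arrays, and those of the titles were used. With the replicate block, miR-146b was 0.33, 0.50 and 0.71 above control and the counts of calls did not move. With the slide as a block, 1 of 225 was called in 2wr in place of 0, miR-155 (limma adjusted p = 0.0449). The counts of the other comparisons did not move. In 2wr miR-155 was also called with the authors' values (limma adjusted p = 0.0323). Scaling by the 75th percentile over all mouse miRNAs called it there too (limma adjusted p = 0.0321), and no other setting that keeps all arrays did. The replicate block put miR-146a 1.84 above control in 2wr. By the methods' overall test miR-146b had an adjusted p of 0.646, and 0 of 225 miRNAs passed it. Signals close to the background limit miR-146b, whose dimmer probe had all spots well above it on 1 of 14 arrays.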
